A study of Mus musculus with 6 samples.

Results

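Long noncoding RNAs of the brain were examined in the cortex of mice 14 days after stroke, with or without short-chain fatty acids (SCFA), acids such as acetate and butyrate made by gut microbes. The genes were chosen by symbol and comprised Malat1, Neat1, Meg3, Rian, Mirg, Miat, Snhg11, Cdr1 and Peg13, which is 9 of the 24480 genes and unmatched rows of the count table, and 8 of the 9 had enough counts to be tested. Total RNA from snap-frozen cortex was sequenced from 3 male C57BL/6J mice given SCFA in their drinking water and 3 given a salt-matched control, all 15 weeks old according to the design text. All animals, controls included, drank antibiotics (Metronidazol, Neomycin, Ampicillin, Vancomycin) in 5% sucrose, and the 4 weeks of SCFA or salt began at 6 to 8 weeks of age. The library kit, Ovation Human FFPE, is named for human RNA. The comparison asks how SCFA change the transcriptome of the post-stroke cortex. The sources used here state neither the hemisphere nor the distance from the lesion, and no animal without stroke or without antibiotics was analysed here.

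Long noncoding RNAs act as RNA and not through a protein. Malat1 gathers in nuclear speckles, the stores of splicing factors, and Neat1 is the scaffold of paraspeckles, another kind of nuclear body. Meg3, Rian and Mirg are read from the maternal copy of the imprinted Dlk1-Dio3 region and carry many microRNAs and small nucleolar RNAs, while Peg13 is read from the paternal copy of another imprinted region, inside the gene Trappc9. Miat is a nuclear RNA of neurons, and Snhg11 is a small nucleolar RNA host gene rich in neurons. Cdr1 is itself annotated as protein-coding, but the strand opposite to it gives Cdr1as, a circular RNA of neurons that binds the microRNA miR-7.

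The sequence that sets Cdr1 apart from the other 8 genes is the miR-7 site. The mature miR-7 forms and the most frequent sites on the strand opposite to Cdr1 are shown because they mark what the Cdr1 row can hold. Capitals mark the seed (bases 2 to 8) in the microRNAs and the 7 bases that pair with it in the sites, all written 5′ to 3′. The microRNAs come from RefSeq (GRCm38.p6) and the sites from the reverse complement of the GENCODE M21 transcript of Cdr1.
mmu-miR-7a-5p: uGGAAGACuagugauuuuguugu
mmu-miR-7b-5p: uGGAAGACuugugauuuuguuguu
Cdr1 opposite strand, 19 copies: cttcccgaaaatccaaGTCTTCC
Cdr1 opposite strand, 11 copies: cttcccagaaatccaaGTCTTCC
Cdr1 opposite strand, 11 copies: cttcccagaaatccgaGTCTTCC
Cdr1 opposite strand, 10 copies: cttcccagaagtccaaGTCTTCC

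The strand opposite to the 1554-base Cdr1 transcript held the seed match GTCTTCC 79 times and the Cdr1 strand 0 times. In 72 of the 78 steps from one match to the next the spacing was 18 bases. Among the GENCODE transcripts of the other 8 genes (Rian had none paired to its row), the count was 0 to 5 on either strand, with 5 on the strand opposite to the 14548-base Meg3 transcript. Of 25971 mouse transcripts of 1000 to 2000 bases, 5 (0.0193%) held 5 or more matches on either strand, and the highest count outside Cdr1 was 12. A match of letters is a description of the sequence and no measure of binding. The sources used here do not state whether counting used the strand, so reads from Cdr1 and from Cdr1as cannot be told apart in the Cdr1 row, and reads from repeats may align to several places within it.

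Total counts ran from 9275252 to 13862756 per library, of which a single unmatched row took 35.0% to 55.3%. The 9 genes held 4.07% to 7.03% of the remaining counts, and Malat1 and Cdr1 made up 93.4% to 95.8% of that. Rows with any count numbered 13600 for control 2 and 15988 to 16941 for the others. Of the marker lists, neurons summed to 4502 to 5296 CPM (counts per 1000000 of the TMM-scaled library) in controls and 5165 to 5861 with SCFA, astrocytes to 822 to 975.3 and 1135 to 1637, and microglia to 276 to 384 and 465 to 719. Oligodendrocyte precursor markers summed to 51.3 to 58.5 and 63.1 to 93.1, endothelial cells to 56.0 to 71.6 and 81.8 to 121, and choroid plexus to 6.61 to 12.4 and 8.57 to 13.7. Markers of striatal neurons, from a region beneath the cortex, summed to 397 CPM in SCFA 2 and 71.4 to 134 elsewhere, and those of the exocrine pancreas to 33.4 to 351 in controls and 0.412 to 1.25 with SCFA. The endothelial markers Pecam1 and Tek and the choroid plexus marker Folr1 stood at 0 counts in all 6 libraries. This was not read as absence, since the sources used here do not state how reads shared by rows were treated. The sums of astrocytes, microglia, oligodendrocyte precursors, endothelial cells and exocrine pancreas did not overlap between the groups, and their part in the results that follow was not tested. In bulk tissue, fewer cells of a type and less RNA per cell cannot be told apart.

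None of the 8 tested long noncoding RNAs passed the test with SCFA. With edgeR's quasi-likelihood test and Benjamini-Hochberg adjustment over 11960 genes, 0 of 8 passed at an adjusted p under 0.05, where 0.0836% of all tested genes passed (1 higher, 0.00836%, and 9 lower, 0.0753%). At an unadjusted p under 0.05 it was 1 of 8, Snhg11, against 5.76% of all genes (2.98% higher and 2.78% lower), while DESeq2 and limma-voom each gave 0 after adjustment and 2 at an unadjusted p under 0.05, Malat1 and Snhg11. The log2 fold change lay below 0 for 7 of the 8 and above 0 for Peg13, but with scaling by total counts Mirg also came to lie above 0. The median over the 8 genes was -0.22 beside 0.01 over all tested genes, and with total counts it was -0.08 beside 0.18. In TMM-scaled CPM, Malat1 and Snhg11 were the genes whose groups did not overlap, 2 of 8, both lower. Of all tested genes, 12.2% did not overlap (6.42% higher and 5.75% lower). As a share of total counts, the groups of both genes overlapped. SCFA 1 held 120943 Malat1 and 8232 Snhg11 counts of 9275252, and control 2 held 122000 and 7564 of 11397967.

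**Figure D1:**
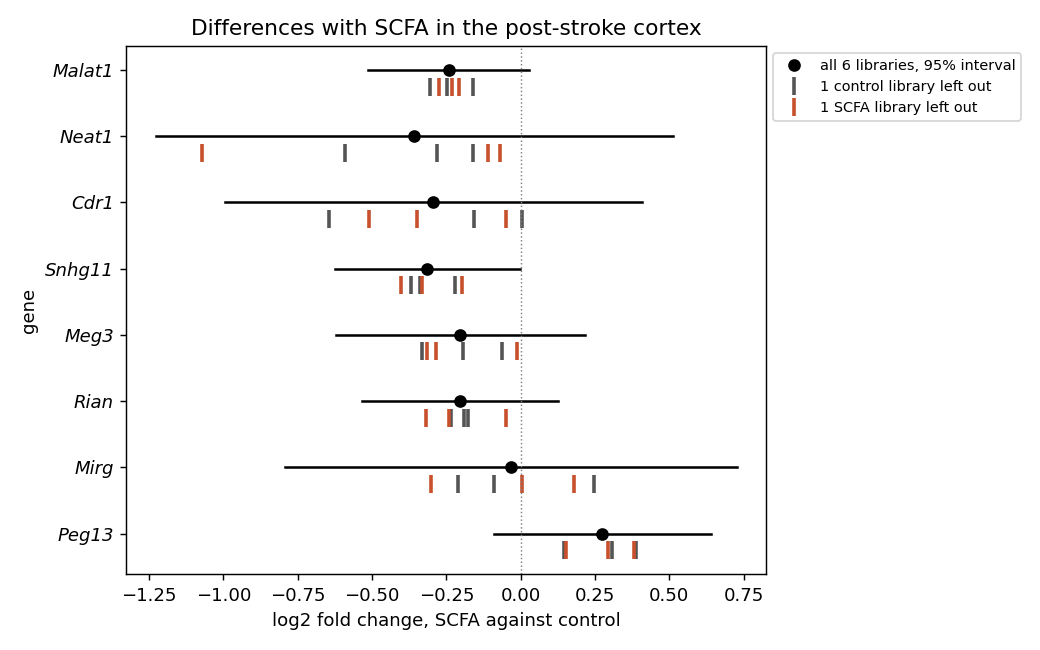
Log2 fold change of each tested gene, SCFA against control (x axis), by gene (y axis). The black point is the estimate from all 6 libraries with its 95% interval, and the ticks below it are the estimates with 1 control (grey) or 1 SCFA library (orange) left out. The interval of Snhg11 ends just below 0, at -0.003, and those of the other 7 genes cross 0.

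Among the nuclear-body RNAs, Malat1 (chromosome 19, 5795690 to 5802672, GRCm38, a single exon) measured 15647, 14057 and 12807 CPM in controls 1 to 3. In SCFA 1 to 3 it measured 12637, 11519 and 11786 CPM. Each SCFA library thus lay below each control, with SCFA 1 and control 3 close together. The means were 14170 ± 1423 and 11981 ± 584 CPM (SD, n = 3 each), and the log2 fold change of -0.24 had an SE of 0.126 and a 95% interval from -0.51 to 0.03 (edgeR, adjusted p = 0.881). Without any 1 library the value stayed between -0.31 and -0.16, and with total counts it was -0.08. Malat1 was the steadiest of the 8 genes, with a coefficient of variation of 11.8% over the 6 libraries.

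Neat1 (chromosome 19, 5824708 to 5845480) varied most. Controls 1 to 3 stood at 28.9, 15.1 and 25.5 CPM and SCFA 1 to 3 at 32.8, 11.7 and 10.3 CPM. SCFA 1 was the highest of all libraries and SCFA 3 the lowest, so the groups overlapped fully. The highest level was 3.19 times the lowest, and the log2 fold change was -0.36 (SE 0.404, edgeR, adjusted p = 0.946). Without SCFA 1 it became -1.07 at an unadjusted p of 0.00874 (edgeR, adjusted p = 0.726), without SCFA 2 it was -0.11 and without SCFA 3 it was -0.07. The table has 2 rows for this gene. The row of the short form, NR_003513, held 0 counts, and its 3004 exonic bases all lie within the long form. The row of the long form, NR_131212, held all 1365 counts and has 17767 bases that the short form lacks. All Neat1 values here thus come from the long-form row, and a level of short Neat1 cannot be read from them.

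The count of Neat1 as a share of Malat1, which does not depend on library size, was 0.185%, 0.107% and 0.199% in controls and 0.260%, 0.101% and 0.0871% with SCFA. Control 2, SCFA 2 and SCFA 3 were low and SCFA 1 was highest. The mean log2 ratio was -9.30 ± 0.49 in controls and -9.57 ± 0.85 with SCFA (SD, n = 3 each). The difference did not pass an exact two-sided permutation test (p = 0.8, where 20 regroupings allow no p below 0.1).

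**Figure D2:**
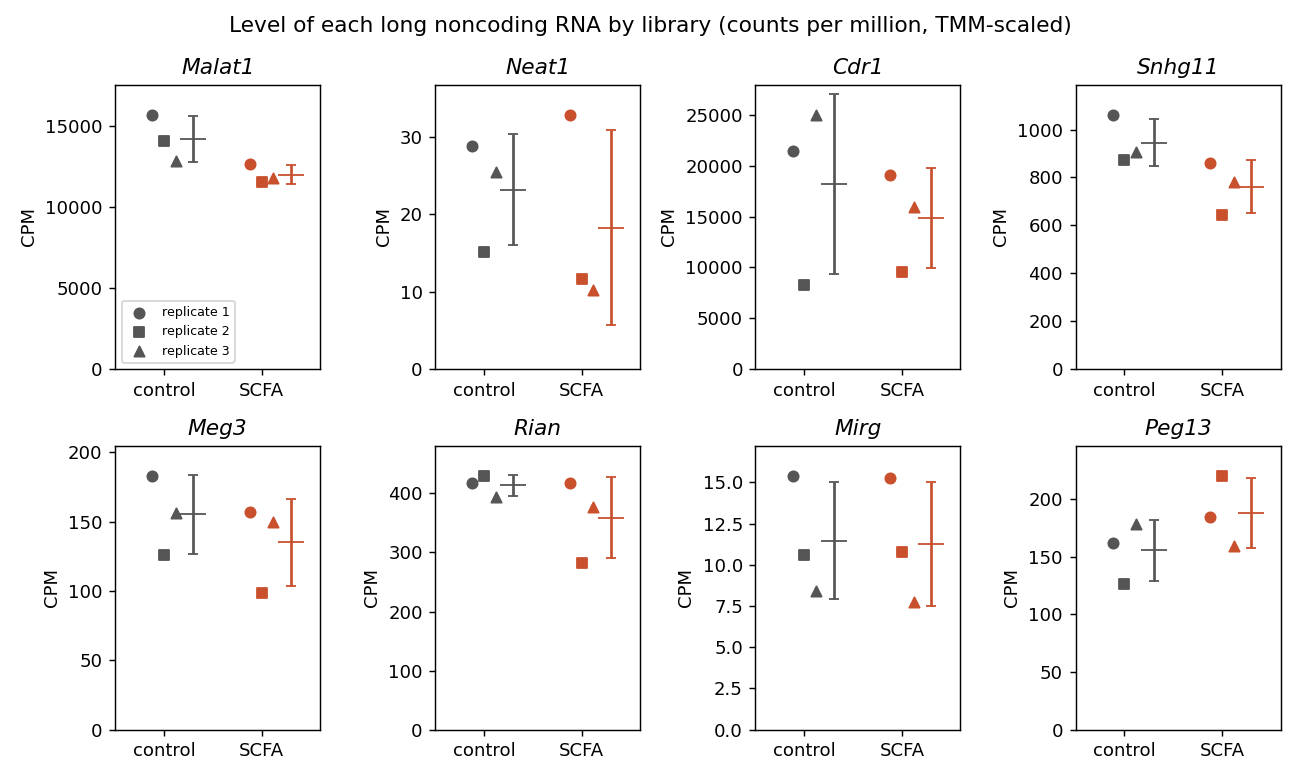
Level of each tested gene in CPM (y axis, linear from 0) for control and SCFA animals (x axis). Each marker is 1 library, with its shape giving the replicate number, and the bar beside it is the mean with its SD (n = 3). In this TMM scaling, controls and SCFA libraries separate for Malat1 and Snhg11 and overlap for the other 6 genes.

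Snhg11 (chromosome 2, 158375713 to 158386474) had the smallest p of the 8 tested genes. It measured 1059, 872 and 907 CPM in controls 1 to 3 and 860, 643 and 780 CPM in SCFA 1 to 3. All SCFA libraries lay below all controls, SCFA 1 by a small margin to control 2. The means were 946 ± 99.8 and 761 ± 110 CPM (SD, n = 3 each), which gives a log2 fold change of -0.31 (SE 0.144, 95% interval -0.63 to -0.003). The unadjusted p was 0.0484 and the edgeR adjusted p 0.862. SCFA 2, the lowest library, also had the highest sums of neuron, astrocyte, microglia, oligodendrocyte precursor, endothelial, striatal and choroid plexus markers, and their part in the result was not tested. Leaving it out gave -0.20 at an unadjusted edgeR p of 0.154, and leaving out control 1 gave -0.22 at an unadjusted edgeR p of 0.213. With total counts the value was -0.17 at an unadjusted edgeR p of 0.511, and with upper-quartile factors it was -0.32 at 0.0527. The level ranked 45th among all genes and rows of the table by mean CPM.

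Cdr1 (chromosome X, 61183246 to 61185558, minus strand) had the highest mean CPM of the 9 genes over the 6 libraries and ranked 2nd in the whole table, with Malat1 next. In control 2 and SCFA 2 its count was below that of Malat1, at 0.585 and 0.825 times, and in the other 4 libraries it was 1.35 to 1.95 times as high. It measured 21450.5, 8224 and 24962 CPM in controls 1 to 3 and 19130, 9498 and 15946 CPM in SCFA 1 to 3. The lowest control, control 2, lay below every SCFA library, and the other 2 controls lay above every one. The means were 18212 ± 8826 and 14858 ± 4907 CPM (SD, n = 3 each) with a log2 fold change of -0.29 (SE 0.325, edgeR, adjusted p = 0.945). This value changed with the library left out. Without control 2 it was -0.64 at an unadjusted p of 0.00603 (edgeR, adjusted p = 0.67), without control 3 it was 0.004, and without SCFA 2 it was -0.05. Without control 2 and SCFA 2 together it was -0.40 at an unadjusted edgeR p of 0.0018 (edgeR, adjusted p = 0.419). Control 2 is also the library with the fewest rows detected.

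Cdr1os (chromosome X, 61116378 to 61139460), a long noncoding RNA gene beside Cdr1, was read from the list of other long noncoding RNAs. It measured 39.5, 56.7 and 42.0 CPM in controls 1 to 3 and 30.7, 23.2 and 30.6 CPM with SCFA. Every SCFA library lay below every control, with a log2 fold change of -0.71 (SE 0.214) at an unadjusted p of 0.00546, and it did not pass over all genes (edgeR, adjusted p = 0.862). Control 2 was the highest library for Cdr1os and the lowest for Cdr1. The Cdr1 count was accordingly 145 times that of Cdr1os in control 2 and 410 to 623 times in the other 5 libraries.

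**Figure D3:**
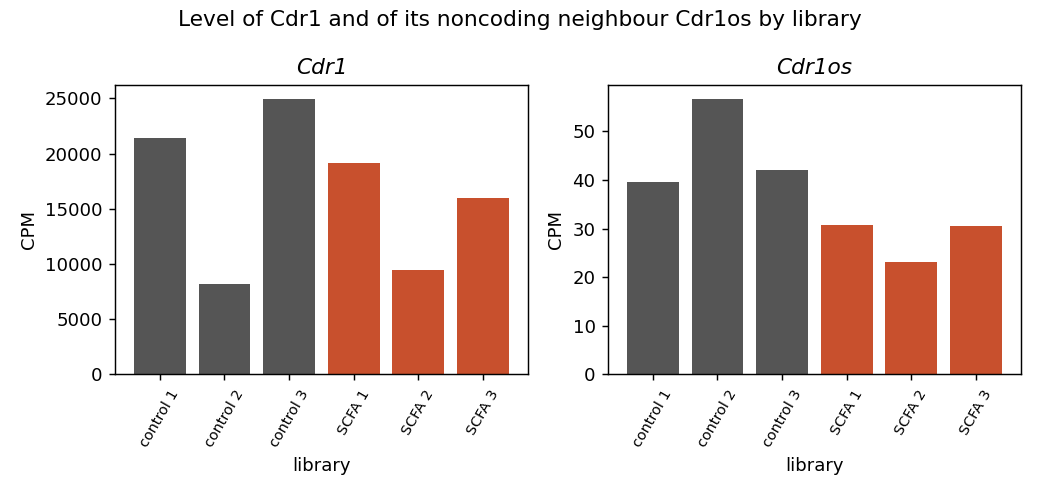
Level in CPM (y axis, linear from 0) of Cdr1 and of Cdr1os in each library (x axis, controls grey, SCFA orange). Cdr1 is lowest in control 2 at 8224 CPM, where Cdr1os is highest at 56.7 CPM.

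The imprinted genes of chromosome 12 lie in the order Meg3 (109540996 to 109571729), Rian (109603945 to 109661716) and Mirg (109734981 to 109749458). Meg3 measured 183, 126 and 157 CPM in controls 1 to 3 and 157, 98.7 and 150 CPM in SCFA 1 to 3. Rian measured 418, 429 and 394 CPM in controls and 417, 283 and 377 CPM with SCFA. Mirg, the least abundant tested gene, measured 15.4, 10.6 and 8.41 CPM in controls and 15.3, 10.8 and 7.74 CPM with SCFA. SCFA 2 was the lowest library for Meg3 and Rian, and the groups overlapped for all 3 genes. SCFA against control gave -0.20 for Meg3 (SE 0.194), -0.20 for Rian (SE 0.153) and -0.03 for Mirg (SE 0.353) on the log2 scale, with edgeR adjusted p values of 0.926, 0.902 and 0.994. Without SCFA 2 those of Meg3 and Rian were -0.01 and -0.05. For Mirg the sign changed with the library left out, from -0.30 without SCFA 1 to 0.25 without control 1.

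Ratios within a library showed how closely the chromosome 12 genes kept together. The Rian count was 2.29, 3.40 and 2.51 times that of Meg3 in controls 1 to 3 and 2.66, 2.86 and 2.52 times with SCFA, and control 2 stood highest, with a counting interval of 3.18 to 3.64. The mean log2 ratio was 1.43 ± 0.30 in controls and 1.42 ± 0.09 with SCFA, a difference of -0.01 (exact permutation test, two-sided, p = 1.0). The Mirg count was 8.41%, 8.39% and 5.37% of Meg3 in controls and 9.74%, 10.9% and 5.17% with SCFA. Here control 3 and SCFA 3 were low and the other 4 libraries high, and the difference in mean log2 ratio was 0.18 (exact permutation test, two-sided, p = 0.6).

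**Figure D4:**
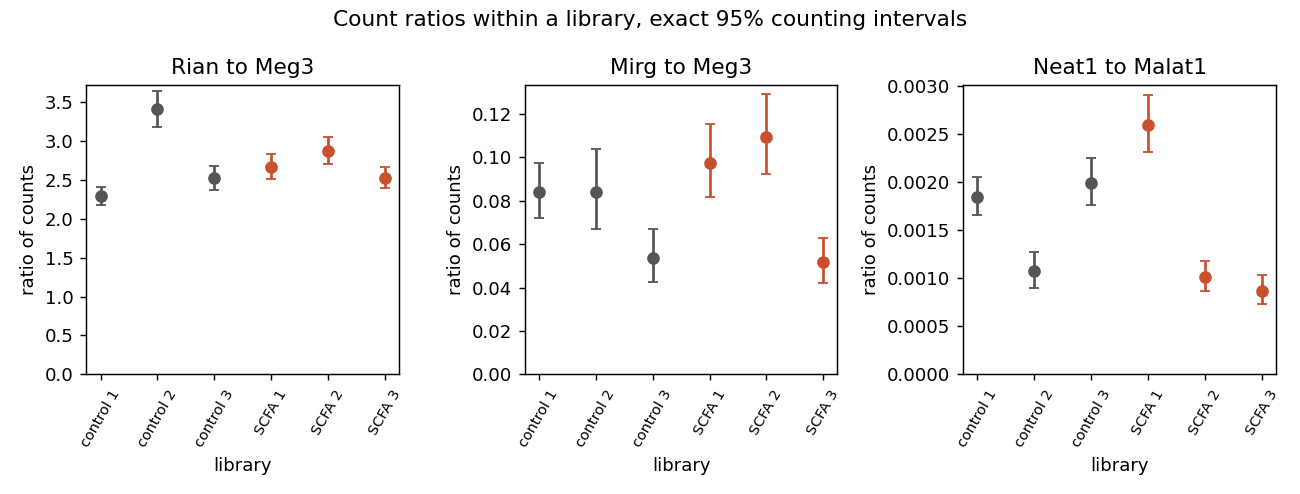
Ratio of counts (y axis, linear from 0) of Rian to Meg3, Mirg to Meg3 and Neat1 to Malat1 in each library (x axis, controls grey, SCFA orange), with exact 95% intervals that cover counting error only. Rian to Meg3 lies between 2.29 and 2.86 except in control 2, where it is 3.40, and the groups overlap in each panel.

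Meg3 is counted in 3 rows, which do not all start at the same place. The row NR_003633, whose start lies downstream and whose last exon is long, held 7152 counts and has 13238 bases of its own. NR_027652 starts upstream, has 127 bases that the other rows lack and held 2712 counts. NR_027651 has 0 bases of its own and held 0 counts. The upstream-start row made up 27.4%, 22.9% and 28.6% of Meg3 counts in controls 1 to 3 and 33.4%, 26.5% and 25.6% with SCFA. Its share was highest in SCFA 1 (exact 95% interval 31.0% to 35.9%) and the groups overlapped. Because the rows differ so much in unshared length, these shares are no measure of which start was used.

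The RefSeq windows around the 2 starts of Meg3 (250 bases before to 50 after, GRCm38.p6, plus strand) are printed because the rows split by them. Capitals mark the motifs found on either strand, which were the cAMP response element TGACGTCA, the TATA box TATAAA, the box named for its letters CCAAT, and the GC box GGGCGG.
Meg3 upstream start, chr12:109540746-109541045: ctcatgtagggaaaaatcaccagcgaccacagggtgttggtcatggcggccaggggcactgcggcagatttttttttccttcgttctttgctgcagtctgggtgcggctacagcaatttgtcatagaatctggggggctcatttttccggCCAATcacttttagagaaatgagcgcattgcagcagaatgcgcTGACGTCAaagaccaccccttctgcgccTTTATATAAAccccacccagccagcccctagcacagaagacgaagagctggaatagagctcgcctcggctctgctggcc
Meg3 downstream start, chr12:109545148-109545447: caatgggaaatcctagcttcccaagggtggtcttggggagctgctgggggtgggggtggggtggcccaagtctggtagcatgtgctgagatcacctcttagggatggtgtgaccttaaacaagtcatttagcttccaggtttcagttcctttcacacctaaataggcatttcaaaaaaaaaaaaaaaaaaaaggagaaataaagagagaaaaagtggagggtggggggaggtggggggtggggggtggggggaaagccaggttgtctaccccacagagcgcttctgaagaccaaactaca

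The upstream window held TGACGTCA, the letters of a cAMP response element, once, as do 1.79% of 32851 promoter windows of this length. It also held CCAAT once (37.4% of windows) and TATAAA once on each strand, in overlapping letters (13.6% of windows). GGGCGG, held by 35.7% of windows, was not among its letters. None of the 4 motifs was found in the downstream window. CpG pairs numbered 13 upstream and 1 downstream, where the median of all windows is 7. A window was also given for Rian, Mirg, Malat1, Miat, Snhg11 and Cdr1, and TGACGTCA was found in none of them. Their CpG counts were 0 for Rian, 10 for Mirg, 10 for Malat1, 25 for Miat, 21 for Snhg11 and 3 for Cdr1.

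The span from Meg3 to Mirg also held rows for 60 microRNA hairpins and 7 small nucleolar RNAs. Of the 111 mature microRNAs that RefSeq places there, 18 share a seed with another, in 9 groups, so most differ in their seed. Mature forms from the hairpins within Rian (miR-341 and miR-370) and Mirg (the others) are shown with the seed in capitals, since they are the products these RNAs are known for, and miR-453 and miR-496a-5p share the seed GGUUGCC.
mmu-miR-341-3p: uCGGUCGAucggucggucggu
mmu-miR-370-3p: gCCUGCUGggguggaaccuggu
mmu-miR-154-3p: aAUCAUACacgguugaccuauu
mmu-miR-377-3p: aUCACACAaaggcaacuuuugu
mmu-miR-410-3p: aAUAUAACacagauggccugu
mmu-miR-453: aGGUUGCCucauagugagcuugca
mmu-miR-496a-5p: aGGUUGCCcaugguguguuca

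Of the 60 hairpin rows, 46 had any counts, and together they held 210, 55 and 152 counts in controls 1 to 3 and 103, 195 and 219 with SCFA. Control 2 was the lowest in these raw counts, which are not scaled for library size. The hairpin rows Mir341 and Mir1188, both within Rian, were the ones with enough counts to be tested, and neither passed (log2 fold changes of -0.57 with an SE of 0.815 and 0.05 with an SE of 1.17). Such rows in a library of total RNA count precursor or host RNA and not the mature microRNA. The 7 small nucleolar RNAs, all within Rian, held 185, 156 and 211 counts in controls and 171, 149 and 197 with SCFA, also unscaled. Of these 4 were tested and 0 passed (edgeR, 0 at an unadjusted p under 0.05), with DQ267100 at -0.31 (SE 0.444), AF357359 at -0.34 (SE 0.444), AF357355 at -0.27 (SE 0.796) and AF357425 at 0.40 (SE 1.116).

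Peg13 (chromosome 15, 72805602 to 72810324, a single exon) was the one gene of the 8 tested with a higher mean with SCFA. It measured 162, 127 and 178 CPM in controls 1 to 3 and 185, 220 and 159 CPM in SCFA 1 to 3. SCFA 1 and SCFA 2 lay above all controls, and SCFA 3 lay below controls 1 and 3. The means were 155 ± 26.4 and 188 ± 30.4 CPM (SD, n = 3 each), and the log2 fold change was 0.27 (SE 0.169, edgeR, adjusted p = 0.892). The highest library was SCFA 2, where the marker sums named for Snhg11 were also highest, and the lowest was control 2. The part of either in the result was not tested. Leaving out the highest SCFA library and the lowest control lowers the difference in any case. Without control 2 and SCFA 2 together the log2 fold change was 0.02. Without SCFA 2 alone it was 0.15, and without control 2 alone it was 0.15 as well.

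Miat (chromosome 5, 112213228 to 112228948) had 1 count in all, in SCFA 1, and was not tested. Its 2 rows pair with the same GENCODE transcript of 8758 bases, so neither has sequence of its own by that annotation. The count was not read as absence of the RNA, since the sources used here do not state how reads shared by several rows were treated. Rows of Neat1 and Meg3 whose exonic bases are all shared with other rows of the gene also stood at 0. The Miat transcript held the letters TACTAAC, a repeat it is known for, 6 times, where those paired to the other genes held it 0 times or, in long Neat1, 1 time.

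Set per kilobase of exonic sequence that no other row of the gene shares, the levels fell into steps over the 6 libraries. This length holds only if shared reads went uncounted, which the sources used here do not state. Cdr1 lay at 7149 ± 2873 CPM per kilobase (range 3555 to 10792, by its RefSeq span of 2313 bases) and Malat1 at 1872 ± 221 (1650 to 2241). Snhg11 lay at 146 ± 23.5 (110 to 181) and Peg13 at 36.4 ± 6.58 (26.8 to 46.5). Mirg, at 8.74 (5.95 to 11.8), and the long row of Meg3, at 7.93 (5.48 to 10.03), did not differ beyond their spread. Neat1 was lowest at 1.17 ± 0.54 (0.578 to 1.85). Errors are the SD of 6 libraries of both groups, and apart from Mirg and Meg3 the ranges of neighbours in this order did not overlap. By its other row with counts, which has 127 unshared bases, Meg3 would lie at 316 ± 85.8 (206 to 412), above Snhg11, so the place of Meg3 depends on the row. Rian and Miat were not placed, since no unshared exonic length could be given for their rows.

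Across libraries the genes did not share a single pattern. SCFA 2 was the lowest of the 6 libraries for 4 of the 8 genes (Malat1, Meg3, Rian and Snhg11), and control 1 was the highest for 4 (Malat1, Meg3, Mirg and Snhg11). Control 2 was the lowest for Cdr1 and Peg13. In the likeness measure used here, the mean absolute difference of log2 CPM centred on each gene's mean, Malat1 and Snhg11 were nearest to each other at 0.09, while Neat1 and Peg13 were farthest apart at 0.61. Outside the set, the genes nearest to Snhg11 over the 6 libraries were Pcf11 (0.04) and Erbb4 (0.04), and those nearest to Meg3 were Mir124a-1hg (0.04), the host RNA of a neuronal microRNA, and Rsrc2 (0.05). Peg13 was nearest to Bcl7a and Got2 (0.05 each) and Cdr1 to Asb3 (0.13) and Ranbp3l (0.14). These are descriptions over 6 libraries, with no test.

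**Figure D5:**
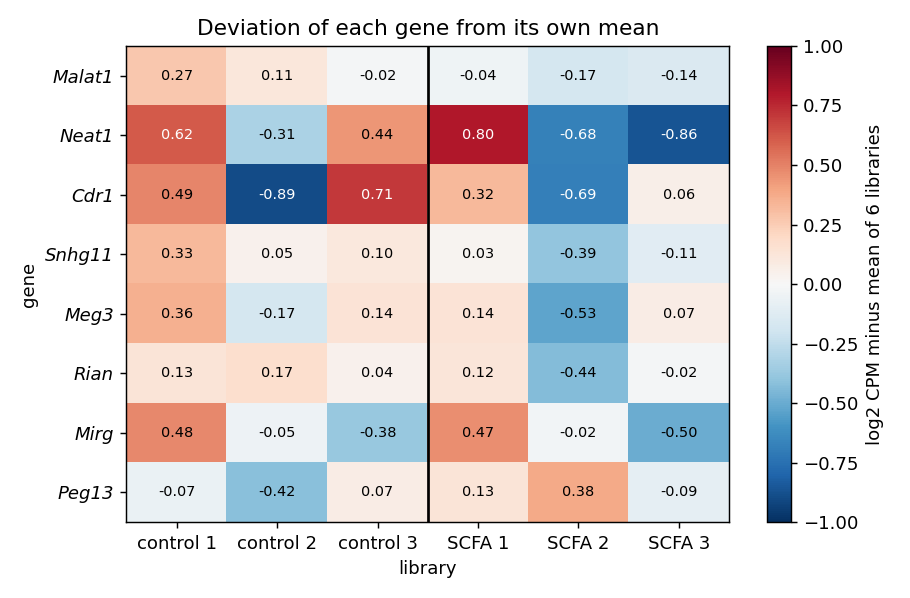
Deviation of each gene (rows) from its own mean over the 6 libraries (columns), in log2 CPM, red above and blue below. SCFA 2 is blue for all genes but Peg13, at 0.38, and control 2 is deepest for Cdr1, at -0.89.

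The neighbours and partners of these RNAs were read from lists. Among the 11 genes in and beside the Dlk1-Dio3 region, 7 were tested and 0 passed, with a median log2 fold change of -0.24 beside 0.01 over all genes and 6 of 7 below 0. With total counts 4 of 7 lay below 0 and the median was -0.04, beside 0.18 over all genes. The retrotransposon-derived gene Rtl1 is read from the opposite strand between Meg3 and Rian and overlaps both. It averaged 27.6 ± 2.88 CPM without and 22.5 ± 2.57 CPM with SCFA (SD, n = 3 each, log2 fold change -0.30, edgeR adjusted p = 0.902). Whether counting used the strand is not stated, so its row may not be separate from those of Meg3 and Rian. Among the 7 tested, Mok and Wdr25 had the smallest p, with log2 fold changes of -0.63 (SE 0.364) and -0.97 (SE 0.627). Dlk1 had 0 counts over 5 rows and Dio3 had 31 counts in all. The 0 of Dlk1 was not read as absence, since the sources used here do not state how reads shared by several rows were treated. Of 5 genes around Peg13, 5 were tested and 0 passed (median -0.04), with the histone-fold gene Chrac1 at -0.50 (SE 0.307) and the potassium channel gene Kcnk9 at -0.48 (SE 0.381). Trappc9, within which Peg13 lies, was at -0.04 (SE 0.586). Of 34 other imprinted genes 21 were tested and 0 passed (median 0.08), Grb10 at 1.19 (SE 0.917) and Impact at -0.17 (SE 0.129) having the smallest p. In these 3 lists 0 genes had an unadjusted p under 0.05 in edgeR.

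Of 27 paraspeckle protein genes, partners of Neat1, 16 were tested and 0 passed, with a median of -0.08. Among those not tested, 5 had 0 counts in all 6 libraries, each over several rows, so the result does not cover every partner. Ahdc1 was at 0.41 (SE 0.189) and the RNA-binding protein gene Hnrnph3 at -0.68 (SE 0.350), and 0 had an unadjusted p under 0.05. Of 28 genes for splicing factors of nuclear speckles and for proteins known to bind Miat, 20 were tested and 0 passed (median 0.01, 0 at an unadjusted p under 0.05). Here too, 5 genes with several rows had 0 counts in all 6 libraries. The splicing-related gene Pnisr was at -0.22 (SE 0.136) and Prpf8, a core spliceosome gene, at 0.23 (SE 0.146). Of 10 genes around Malat1 and Neat1, 7 were tested and 0 passed, with a median of 0.04. Ehbp1l1, at -1.98 (SE 0.857), had an unadjusted p under 0.05, and Map3k11 was at 0.41 (SE 0.337).

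The wider class of long noncoding RNAs was read from a list as well. Of 63 on the list 54 were in the table and 41 were tested. None passed (edgeR), 27 lay below 0 and 14 above, and the median was -0.25, beside 0.01 over all genes. With total counts 24 lay below 0 and the median was -0.08, beside 0.18 over all genes. At an unadjusted p under 0.05 (edgeR) there were 2, Cdr1os and Gas5, a host gene of small nucleolar RNAs, which averaged 88.3 ± 12.9 CPM without and 66.6 ± 15.0 CPM with SCFA (SD, n = 3 each, log2 fold change -0.41, SE 0.189, adjusted p = 0.862). Xist, the RNA that silences an X chromosome in female cells, had 32 counts in control 1, 3 in SCFA 1 and 0 in the other libraries. It has 2 rows, and treatment of reads shared by rows is not stated, so 0 was not read as absence.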

How the data were processed

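RNA sequencing counts of 6 cortex libraries were used. The deposited table holds raw counts per RefSeq transcript row. CASAVA 1.8.2, featureCounts and build mm10 are named per the submitters' processing notes. Aligner, strand setting and treatment of shared reads: not given in the sources used here. Among 34755 rows, 34424 were matched to symbols through RefSeq (GRCm38.p6) and 192 more, among them Snhg11, through GENCODE M21, and rows of a symbol were summed.

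The test was that of edgeR 4.0.16 under R 4.3.3 (filterByExpr with a minimum count of 10 and minimum total of 15, TMM, quasi-likelihood F test without covariate, two-sided, Benjamini-Hochberg, threshold 0.05), which was tested on simulated data. The 139 unmatched rows, one of which took 35.0% to 55.3% of the counts, stayed in library sizes, and an alternative removed that one and structural RNA. The SE is the log2 fold change divided by the square root of F. Pattern likeness used a prior count of 2 and genes averaging 4 log2 CPM or more. Named genes are the 9 members, the 2 genes of each list with the smallest p and, for 4 members, the 2 of 5174 genes nearest in pattern. Rtl1, Dlk1, Dio3, Trappc9 and Xist were named beyond that rule, after their values were seen. Members, lists and rules were chosen with earlier results of these data known. Each library was taken as 1 animal, following the design text. One marker list is not reported here.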

Additional observations from a re-analysis of the deposited data

How the results depend on the processing

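Results were recomputed with 3 other scalings (DESeq2's factors, upper quartile, total counts), 2 other filters, DESeq2 1.42.0, limma-voom (limma 3.58.1), robust dispersion and a replicate block. They were also recomputed without each library, without control 2 and SCFA 2 together, without structural RNA and on unsummed rows. None of the 8 genes passed under any of these 18. The smallest adjusted p was 0.419 (edgeR), for Cdr1 without control 2 and SCFA 2 together. Malat1, Neat1, Meg3, Rian, Snhg11 and Peg13 kept their direction in all 18. The value of Mirg was 0.12 with total counts and ranged from -0.30 to 0.25 with 1 library left out. That of Cdr1 ranged from -0.64 to 0.00449, and the cause was not tested. With 1 library left out, the difference in log2 ratio ranged from -0.13 to 0.16 for Rian to Meg3, from -0.0363 to 0.51 for Mirg to Meg3 and from -0.75 to 0.0373 for Neat1 to Malat1. Genes higher and lower over the whole table, 1 and 9, became 30 and 25 without a filter, 14 and 17 with DESeq2, 0 and 0 with limma-voom, 14 and 11 without control 2 and SCFA 2 together and 10 and 12 with the replicate block. With 1 library left out they ranged from 0 to 8 and from 0 to 13. Same-numbered libraries shared no deviation (r of -0.00186, 0.0113 and -0.00414), so the numbers were not read as pairs, and under the block none of the 8 passed (lowest adjusted p = 0.851). Counts of Neat1 and Mirg were low, at 131 to 357 and 84 to 190 per library, which limits their precision.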
